A study of Mus musculus with 22 samples.

Results

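C1 cells are cultured neural stem cells (NSCs) from the brain of E12.5 mouse embryos. They carry floxed alleles of both Musashi genes, Msi1 and Msi2, but no CreER, so that 4-hydroxytamoxifen (4-OHT), the ligand that switches CreER on, has no Cre to act on in them, and the study used them as its control for the drug. They account for 4 of the 22 samples, chosen by their labels: 1 Ribo-Seq and 1 polyA-selected RNA-Seq library without 4-OHT, and 1 of each with it, at the 48-hour time point. C4 cells carry the same floxed alleles with CreER and were profiled in the same 4 ways. The other Ribo-Seq libraries, also from E12.5 NSCs, came from KH2 cells (R26-m2rTTA with no Msi cDNA) and MSI1 cells (R26-m2rTTA with a Msi1 cDNA at Col1A1), each with and without doxycycline (Dox). They were taken at a later time point than the C1 and C4 libraries. Every condition had 1 library of each kind. No difference below therefore has a replicate check and no p-value is given. The intervals are 95% intervals from the read counts and cover counting error only.

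Ribosome profiling sequences the stretches of mRNA that a ribosome shields from nuclease (footprints). Dividing a gene's footprint RPKM (reads per kilobase and 1000000 reads) by its RNA-Seq RPKM gives its translational efficiency (TE), a measure of how densely the mRNA is loaded. Most proteins are made by cytosolic ribosomes, whereas mitochondria translate the few mRNAs of their own genome on ribosomes of a separate, bacterial type, so that a preparation of cell lysate holds footprints of both. Replication-dependent histone mRNAs are a further special class: they are made during DNA replication and end in a stem-loop rather than a polyA tail.

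Of 23081 genes in the Ribo-Seq table, 5468 had over 50 footprint reads in both C1 libraries. Of these, 339 had no RNA-Seq row and 211 were listed at 0 reads in an RNA-Seq library, which left 4918 genes whose TE change could be computed. Most genes lost by the limit were lost in the treated library: 2927 genes passed it only without 4-OHT and 17 only with it. Genes with few untreated reads could therefore be counted only if their footprints held up with 4-OHT. Among genes over the limit without 4-OHT, the 289 genes just outside it (46 to 50 treated reads) had a median centred TE change of 0.01 and the 251 just inside (51 to 55 reads) of 0.07.

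The mRNAs of the targeted genes were checked against the label of a line without Cre. Msi2 had 1005 RNA-Seq reads without 4-OHT and 1141 with it in C1 cells, and Msi1 had 2490 and 1894. In C4 cells Msi2 went from 630 to 87 reads, while Msi1 had 712 and 853; whether the counted Msi1 exons lie in the deleted stretch is not given in the sources used here. Centred on the median gene, the TE change of Msi1 in C1 cells was 0.18 (interval -0.12 to 0.47) and that of Msi2 0.00 (interval -0.27 to 0.28), so neither stood apart from the other genes.

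Nearly all genes had a lower TE with 4-OHT on the RPKM scale, which also counts reads off the coding exons. TE was lower in 4892 of the 4918 genes (99.5%), with a median log2 change of -1.48, to 0.359 of the untreated value. The median footprint change was -1.46, and the median mRNA change was 0.01. In C4 cells the same comparison gave a median of -0.24 over 3755 genes, with 76.7% of them lower. The untreated C1 Ribo-Seq library was the one that stood apart from the other libraries of these lines: 28.5% of the reads behind its RPKM values lay on the listed coding exons, against 11.2% in C1 cells with 4-OHT and 7.53% and 7.46% in C4 cells without and with it. The share was 32.1% and 12.3% in KH2 cells without and with Dox, and 10.8% and 7.85% in MSI1 cells. Against untreated C4 cells, treated C1 cells had a median TE change of 0.51 (4223 genes) and untreated C1 cells of 1.97 (4484 genes). The sums over coding exons were 6381242 and 2286367 footprint reads for C1 cells without and with 4-OHT and 1865120 and 1675192 for C4 cells, and the RNA-Seq libraries held 45750593 to 58435172 reads. With each library scaled to its summed counts, the median TE change in C1 cells was only -0.13. Reads off the coding exons could not be placed from these tables, and drug, culture and library preparation cannot be told apart with 1 library per condition. Values from treated C1 cells against untreated C4 cells are therefore given beside most of the main ones, although the lines differ in that comparison.

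**Figure D1:**
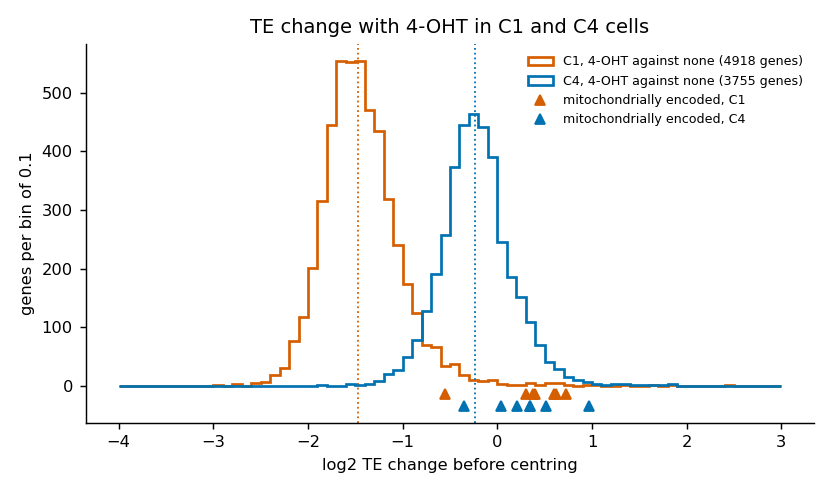
Histogram of the log2 TE change with 4-OHT before centring (x axis) against the number of genes per bin of 0.1 (y axis), for C1 (orange) and C4 cells (blue), with dotted lines at the medians. Triangles mark the 7 mitochondrially encoded genes that could be counted. The C1 genes lie around -1.48 and the C4 genes around -0.24, and 6 of the 7 mitochondrial genes in C1 cells lie above 0, in the upper tail.

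All changes below are centred, that is, given as the log2 TE change of a gene less that of the median gene. A value of 0 thus stands for the general fall of -1.48 on the RPKM scale. The middle 90% of the counted genes lay between -0.54 and 0.72, and the typical counting interval reached 0.29 to either side. At least 2-fold above the median were 98 genes (1.99% of 4918) and at least 2-fold below it 7 genes (0.142%). Scaled to the summed counts of each library in place of the median gene, which moves the median gene to -0.13, the split was 58 above and 23 below. In C4 cells 36 genes (0.959% of 3755) lay 2-fold above and 12 (0.32%) 2-fold below. Of the 98 genes, 14 were histone genes and 6 mitochondrially encoded, and 21 had under 50 RNA-Seq reads in a library, against 67 of all 4918 genes. The bin of 991 genes with the fewest untreated footprints (61 to 220 reads) held 58 of the 98, which the read limit alone favours. Among the 2178 genes with over 500 untreated reads, where no limit was put on the treated library, 32 lay 2-fold above and 1 below.

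The mRNAs of the mitochondrial genome did not share the general fall. Footprints are given here in RPM, reads scaled to 1000000 of the reads behind the RPKM. In RPM, the 13 genes summed to 4423 in C1 cells without 4-OHT, 5357 with it, and 3648 and 4691 in C4 cells without and with it. The highest of these sums was 1.47 times the lowest. All genes other than these and the histone genes summed to 270650, 99074, 67389 and 61246 in the same order, a 4.42-fold range. In C1 cells the mitochondrial sum with 4-OHT was thus 1.21 times that without it, while the sum of the other genes was 0.366 times. Of the C1 and C4 libraries, the untreated C1 one was where cytosolic footprints stood high, and its mitochondrial footprints lay within the range of the others. In KH2 cells, which got no 4-OHT, the 13 genes summed to 2168 without Dox and 4631 with it. The other genes summed to 300162 and 100274 there. The top 10 genes held 77.6% and 35.9% of the KH2 footprints. In MSI1 cells the sums were 2212 and 3635, and 87117 and 63160. A lower sum of the other genes beside a higher mitochondrial sum was thus not particular to C1 cells with 4-OHT.

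Gene by gene, 11 of the 13 mitochondrial genes had more footprints in RPM with 4-OHT, against 34 of the 5468 genes over the read limit (0.622%). mt-Co1, the catalytic subunit of cytochrome c oxidase, had 17868 and 19229 footprint reads in C1 cells without and with 4-OHT and 15297 and 19280 in C4 cells. mt-Cytb, the cytochrome b of complex III, had 11907 and 14163 in C1 cells and 11199 and 14296 in C4 cells. mt-Nd2, a subunit of the NADH dehydrogenase (complex I), had 4686 and 6846, and 5193 and 5490. In RPM, both treated libraries lay above both untreated ones of C1 and C4 cells in 9 of the 13 genes, these 3 among them, and not in mt-Atp6, mt-Atp8, mt-Nd1 and mt-Nd6. The share of all genes with this order is not given, so that count stands without a background. The exceptions in C1 cells were mt-Nd6, with 3659 and 2778 reads, and mt-Atp8, with 15579 and 10131. mt-Nd6 is the only one of the 13 on the other strand, and the listed exon of mt-Atp8, a small subunit of the ATP synthase, overlaps that of mt-Atp6, so that their reads can be shared.

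Of the 13 genes, 7 had RNA-Seq reads and thus a TE, and the other 6 (mt-Atp6, mt-Atp8, mt-Co2, mt-Co3, mt-Nd3 and mt-Nd4l) were listed at 0 in all 4 RNA-Seq libraries. The centred TE change had a median of 1.87 in C1 cells, and 6 of 7 genes lay 2-fold or more above the median gene, from mt-Co1 at 1.78 (interval 1.75 to 1.81) to mt-Nd1 at 2.21 (2.15 to 2.27). mt-Nd6 was at 0.92 (0.85 to 1.00). The mRNAs moved little, with a median centred change of -0.01. In C4 cells the median was 0.58, with mt-Nd6 (1.21) the only one 2-fold above, and for treated C1 against untreated C4 cells it was 0.18, with mt-Nd1 at -0.53. For untreated C1 against untreated C4 cells it was -1.67. By contrast the nuclear-encoded subunits of the respiratory chain, which cytosolic ribosomes make, followed the general fall: of 69 counted, 42 lay above the median gene and none 2-fold from it, with a median of 0.09 between Ndufa8 at -0.46 and Ndufa12 at 0.91. The proteins of the mitochondrial ribosome, also nuclear-encoded, had a median of 0.15 over 64 genes, with Mrps12 (1.06) the only one 2-fold above. Set against untreated C4 cells, these lists lay at 0.06 and -0.04.

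**Figure D2:**
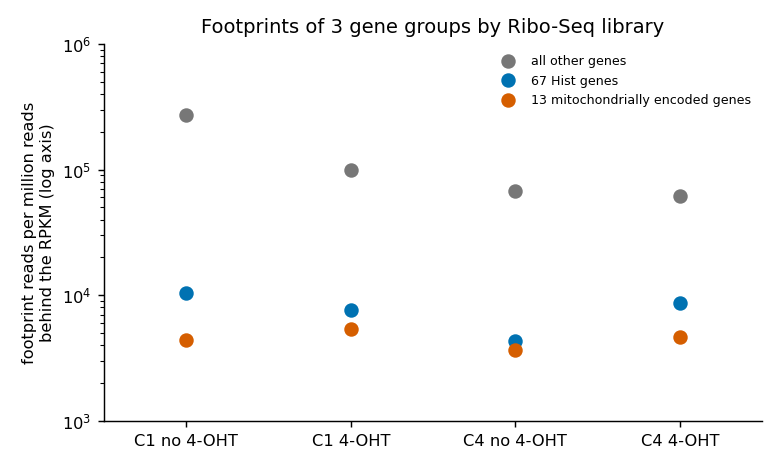
Footprint reads in RPM (log axis) summed over the 13 mitochondrially encoded genes (orange), the 67 histone genes (blue) and all other genes (grey) in the 4 Ribo-Seq libraries of C1 and C4 cells. The other genes stand at 270650 in untreated C1 cells and between 61246 and 99074 in the others, while the mitochondrial genes stay between 3648 and 5357.

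Histone genes were the other class that kept more footprints than the median gene. The replication-dependent histones, which package newly made DNA, are 67 genes in the table, 65 of them over the read limit in both C1 libraries. All 65 had fewer footprints in RPM with 4-OHT, as had nearly all genes: only 34 of the 5468 (0.622%) had more. The histone median log2 change was -0.40, within a narrow range of -0.87 to -0.13, against -1.46 over all 5468 genes. The genes of the linker histone H1 (Hist1h1a to Hist1h1e) lay at a median of -0.37, and their 5 values ranged from -0.60 to -0.19. In C4 cells 64 of 65 histone genes had more footprints with 4-OHT, against 1477 of all 4201 genes (35.2%). The median was 1.00 against -0.13 over all genes, and the exception was Hist4h4 (-0.13). Between treated C1 and untreated C4 cells the median was 0.83, against 0.56 over all genes. Summed over the 67 genes, footprints in RPM were 10401 and 7667 in C1 cells without and with 4-OHT, and 4306 and 8667 in C4 cells. The ratio with 4-OHT was 0.737 in C1 cells and 2.01 in C4 cells, each above that of the other genes of its line (0.366 and 0.909). Without and with Dox, the histone sums were 18244 and 18449 in KH2 cells and 18364 and 11698 in MSI1 cells. Many of these genes are near-identical copies, so that their reads are shared and the narrow range counts 1 pattern many times.

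The TE of histone genes was far less certain than their footprints, because many of them had few or no RNA-Seq reads. The RNA-Seq libraries were polyA-selected, and whether that or reads shared among near-identical copies set this was not tested. Of the 65 genes, 26 could be counted, with a median centred TE change of 1.03 and 14 of them 2-fold above. Their coding exons are GC-rich (median 63.3%), and centred within 20ths of GC content, an alternative added after seeing the data, the median was 0.64. Hist1h3g, an H3 gene, was the highest at 3.35, but this rested on 16 and 3 RNA-Seq reads (interval 1.57 to 5.13), and its footprints alone gave 1.10. Hist1h1c and Hist3h2a, picked after their values were seen for their higher RNA-Seq reads, had narrower intervals. These cover counting error only, not how well polyA-selected reads represent mRNAs that end in a stem-loop. Hist1h1c had 3155 and 2222 footprint reads and 2291 and 1886 RNA-Seq reads in C1 cells, and a centred TE change of 1.21 (interval 1.09 to 1.33). In C4 cells it was 1.07 (0.93 to 1.20). Hist3h2a had 1834 and 1402 footprint reads and 950 and 779 RNA-Seq reads, at 1.33 in C1 cells and 1.40 in C4 cells, with intervals from 1.16 and from 1.21 upward. For treated C1 against untreated C4 cells these genes were at 0.17 and 0.35, and the median of the class at 0.22.

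The remaining genes differed along the base composition of their coding exons. To show what the range of composition looks like, 4 listed exons are given, 5′ to 3′ on the coding strand of NCBIM37 (mm9), with every G and C in capitals. Bbc3 (chr7:16897490-16897763, plus strand, 77.7% GC) and H2-Bl (chr17:36221105-36221168, minus strand, 67.2% GC) had many more footprints with 4-OHT than without. Skp1a (chr11:52050339-52050435, plus strand, 39.2% GC) was among the genes furthest below the median. mt-Nd4l (chrM:9877-10173, plus strand, 41.1% GC) shows that the mitochondrial genes held up at low GC.
Bbc3: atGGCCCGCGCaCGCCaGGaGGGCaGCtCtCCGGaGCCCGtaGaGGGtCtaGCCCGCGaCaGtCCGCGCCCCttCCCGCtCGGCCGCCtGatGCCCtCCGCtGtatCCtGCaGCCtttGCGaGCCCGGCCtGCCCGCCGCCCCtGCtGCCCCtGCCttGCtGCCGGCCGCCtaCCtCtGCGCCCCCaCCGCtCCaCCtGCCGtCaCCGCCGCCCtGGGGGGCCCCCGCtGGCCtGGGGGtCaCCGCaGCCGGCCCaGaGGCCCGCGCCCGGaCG
H2-Bl: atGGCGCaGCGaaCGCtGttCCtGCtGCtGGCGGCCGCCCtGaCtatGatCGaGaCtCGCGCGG
Skp1a: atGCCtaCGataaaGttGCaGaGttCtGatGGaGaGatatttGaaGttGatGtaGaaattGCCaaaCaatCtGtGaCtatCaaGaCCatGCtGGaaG
mt-Nd4l: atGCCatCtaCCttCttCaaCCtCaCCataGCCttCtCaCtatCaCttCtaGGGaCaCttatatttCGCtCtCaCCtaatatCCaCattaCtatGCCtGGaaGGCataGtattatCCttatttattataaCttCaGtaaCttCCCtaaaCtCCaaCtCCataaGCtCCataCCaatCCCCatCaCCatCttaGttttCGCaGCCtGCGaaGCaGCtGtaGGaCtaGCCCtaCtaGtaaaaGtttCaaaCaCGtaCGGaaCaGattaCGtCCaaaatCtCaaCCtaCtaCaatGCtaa

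In C1 cells the centred TE change climbed with GC content. Over 5 bins of near-equal size, from the 984 genes of lowest GC (from 32.1%) to the 984 of highest (56.8 to 75.4%), the medians were -0.17, -0.09, -0.02, 0.08 and 0.24. Footprints alone gave -0.16 in the lowest bin and 0.24 in the highest, and mRNA changes 0.0014 and -0.0012. The highest bin held 51 of the 98 genes 2-fold above the median (5.18% of its 984 genes) and the lowest bin 14 (1.42%), while the lowest bin held 4 of the 7 genes 2-fold below. Across the 4918 genes, which share all 4 libraries, Spearman's rho between GC content and the centred change was 0.37. The step between the end bins was 0.42 in genes with shorter coding exons than the median and 0.40 in longer ones, 0.39 in genes with over 500 untreated reads, and 0.41 without the mitochondrial and histone genes.

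The levels behind the trend were steepest in the untreated C1 library. Relative to the median gene of each library, over the genes with over 50 reads in all 4 libraries, the median TE level of the highest GC bin was -0.51 in untreated C1 cells, -0.27 in treated C1 cells, -0.06 in untreated C4 cells and -0.01 in treated C4 cells. That of the lowest bin was 0.31, 0.17, -0.04 and -0.03. Both C1 libraries thus ran against GC content, the untreated one more steeply, and both C4 libraries were nearly level. In C4 cells the change with 4-OHT was 0.01 in the lowest bin and 0.05 in the highest, with a rho of 0.04 over 3692 genes. Against untreated C4 cells, treated C1 cells gave the opposite trend, from 0.21 to -0.20. Whether library preparation or the cells set this composition was not tested.

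**Figure D3:**
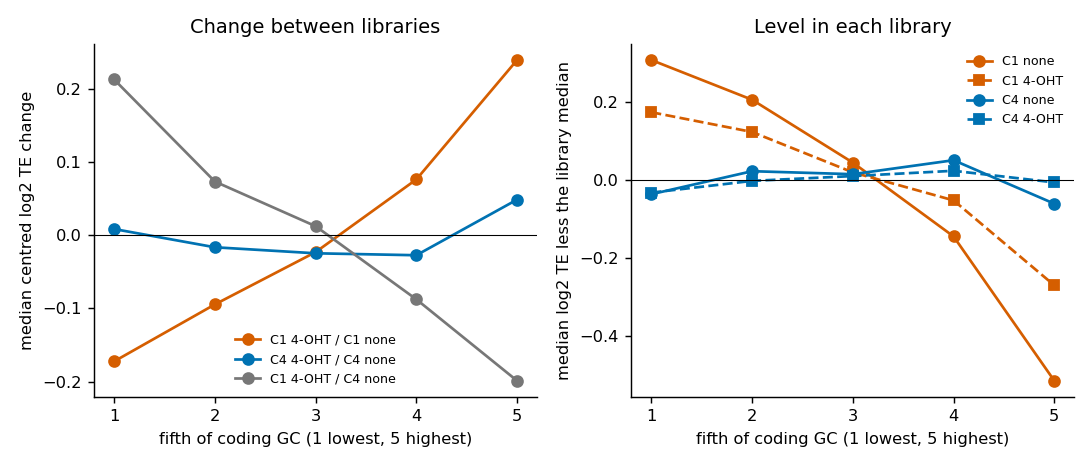
Left, median centred log2 TE change by bin of coding GC (1 lowest to 5 highest) for C1 cells, C4 cells and treated C1 against untreated C4 cells; right, median log2 TE less the median of the library, by the same bins, in each of 4 libraries. The C1 change climbs from -0.17 to 0.24, and on the right untreated C1 cells run from 0.31 down to -0.51 while both C4 libraries stay between -0.06 and 0.05.

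Other properties also went with steps. The bins by untreated C1 footprint reads ran from 0.30 (61 to 220 reads) to -0.07 (1150 or more), a step near that of GC content, and those by TE in untreated C1 cells from 0.14 to -0.06. Both measures share the untreated library with the change, and the read limit favours high values in the bin of fewest reads. By length of the listed coding exons, the medians were 0.11 in the shortest bin (41 to 465 nt) and -0.09 in the longest, and those of C4 cells were similar, at 0.09 and -0.10. By number of listed exons the medians ran from 0.16 (1 to 3 exons) to -0.11 (15 or more), against 0.09 and -0.09 in C4 cells. By mRNA level the bins lay between -0.02 and 0.04. By TE in untreated C4 cells, a measure that shares no library with the C1 change, they ran from -0.08 in the lowest bin to 0.08 in the highest. Pyrimidines at the transcription start are the hallmark of 5′ TOP mRNAs, whose translation follows growth signals. The start sequences came from RefSeq (GRCm38.p6), matched by symbol for 3561 counted genes. The 267 genes starting with 4 or more C or T had a median of 0.02, and the 2537 starting with neither of -0.00086. Of 31 matched ribosomal protein genes, also 5′ TOP mRNAs, only 9 had such a start, with a median of 0.22 against 0.09 for the 31. The annotated starts thus miss many 5′ TOP mRNAs, so these bins cannot show whether that class differed.

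Among single genes, the highest centred TE changes with intervals wholly above 0 were those of Clcf1, Hist1h3g, Rpia, Egln1, Mnda, mt-Nd1, mt-Nd4, mt-Nd2, Gm10382 and Slc25a36. Clcf1, a cytokine of the IL-6 family, had 124 footprint reads without 4-OHT and 718 with it in C1 cells, and 465 and 302 in C4 cells. The untreated C1 library was the low one of the 4. Its RNA-Seq reads were 5330 and 5447, so that TE went from 0.207 to 1.14, a centred change of 3.94 (interval 3.66 to 4.22). For treated C1 against untreated C4 cells it was 0.76 (0.58 to 0.94).

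Rpia, ribose-5-phosphate isomerase of the pentose phosphate pathway, had 128 and 293 footprint reads in C1 cells and 184 and 128 in C4 cells, with a centred change of 3.09 (2.76 to 3.42) in C1 cells and -0.42 (-0.78 to -0.07) in C4 cells. Egln1, the prolyl hydroxylase that marks HIF-α for destruction, had 110 and 192 reads in C1 cells and 162 and 84 in C4 cells, at 2.49 (2.15 to 2.83) and -0.77 (-1.15 to -0.39). In both genes 4-OHT went with more reads in C1 cells and fewer in C4 cells, and the difference was not tested. For treated C1 against untreated C4 cells Rpia was at 0.56 and Egln1 at -0.20 (-0.50 to 0.11). Slc25a36, a mitochondrial carrier of pyrimidine nucleotides, had 125 and 146 reads over 179 nt in C1 cells and 233 and 306 in C4 cells; its centred change was 2.01 (1.55 to 2.47) in C1 cells and -0.96 for treated C1 against untreated C4 cells. Mnda (63 and 74 footprint reads, 35 and 21 RNA-Seq reads) and Gm10382 (133 and 85 footprint reads, 12 and 5 RNA-Seq reads) rested on few mRNA reads.

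Most genes 2-fold above the median in C1 cells were not 2-fold above it elsewhere. Of the 98, 56 could be counted in C4 cells, where 34 lay above the median gene. In C4 cells 6 of the 56 were 2-fold above, 5 of them histone genes, against 36 of all 3755 genes (0.959%). Of 64 that could be counted in treated C1 against untreated C4 cells, 3 were 2-fold above, against 25 of all 4223. Of 64 in untreated C1 against untreated C4 cells, 36 lay 2-fold below the median, against 145 of all 4484. That is, the 36 were low in untreated C1 cells. Both comparisons of C1 with C4 cells share libraries with the C1 pair, so that the counts are given side by side only. Across the 3692 genes counted in both lines, which share no library, Spearman's rho between the C1 and C4 changes was 0.10.

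Bbc3, which encodes the pro-apoptotic BH3-only protein PUMA, lay outside the read limit. It had 10 footprint reads in C1 cells without 4-OHT and 346 with it, and 210 and 157 in C4 cells. The KH2 libraries held 9 (no Dox) and 11 reads (Dox), the MSI1 libraries 48 and 22. Its RNA-Seq reads were 244 and 189 in C1 cells and 218 and 377 in C4 cells. In RPM, footprints were 0.447 and 17.0 in C1 cells and 8.48 and 6.99 in C4 cells, so that of these 4 libraries 3 lay between 6.99 and 17.0 and the untreated C1 library lay below them. The KH2 libraries, at 0.831 and 0.953 RPM, and the MSI1 libraries, at 1.71 and 2.63, were also low. The footprint ratio in C1 cells was 37.9, and the centred TE change 6.91 (interval 5.97 to 7.86). The table counts reads over the GC-rich exon shown above only.

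Bbc3 was among 17 genes over the limit only with 4-OHT, a choice that itself makes the untreated C1 value low and the treated one high. Of the 17, 11 had at most 16 reads without it, and 12 had their lowest RPM of the 4 C1 and C4 libraries in untreated C1 cells. Nkx6-1, a homeodomain factor of ventral neural progenitors, had 5 and 175 footprint reads in C1 cells and 97 and 101 in C4 cells. Lmod3, an actin nucleator of muscle, had 6 and 200, and 99 and 177. Fam43a had 16 and 166, and 216 and 196. Lingo4, a leucine-rich repeat membrane protein, had 9 and 92, and 121 and 82. Ptpn5, the striatal-enriched tyrosine phosphatase, had 11 and 89, and 116 and 29. Vsig8 and Trfr2 were at 0 reads without 4-OHT, which allows up to 3, and at 54 and 58 reads with it. Most of the 11 were also low outside C1 and C4 cells, so untreated C1 cells were not alone in this. Kcna7, a potassium channel gene, had 1 and 0 reads in the KH2 libraries and 5 and 11 in the MSI1 libraries. Iqcf3 had 6 and 0, and 6 and 0. In RPM, Fam43a lay between 0.277 and 2.03 in these libraries, against 8.14 to 8.73 in treated C1 and both C4 libraries. Lingo4 lay between 0.955 and 1.94 against 3.65 to 4.89, and 2410017I17Rik between 0.780 and 2.77 against 7.15 to 13.7. Lmod3 (6.09), Nkx6-1 (4.896) and Trfr2 (1.67) went the other way in MSI1 cells with Dox, above untreated C4 cells. Ptpn5 reached 1.31 there, against 1.29 in treated C4 cells. Nkx6-1, Lmod3, Iqcf3 and 2410017I17Rik were listed at 0 RNA-Seq reads in both C1 libraries, so their footprints have no mRNA to be set against. The median GC content of the 17 was 58.5%, against 51.4% for the counted genes.

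H2-Bl, Heatr7b1 and Fancf, named after their values were seen, had the same shape inside the read limit but no TE. H2-Bl and Heatr7b1 had at most 1 RNA-Seq read in a C1 library and Fancf had no RNA-Seq row. H2-Bl, an MHC class I gene whose 64-nt listed exon resembles those of related class I genes, had 194 and 4086 footprint reads in C1 cells and 2657 and 5234 in C4 cells, a footprint change of 4.53 in C1 cells. Heatr7b1 had 53 and 375, and 534 and 802. Fancf, a Fanconi anaemia repair protein, had 61 and 167, and 200 and 204. In all of them the untreated C1 library was the lowest of the 4.

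**Figure D4:**
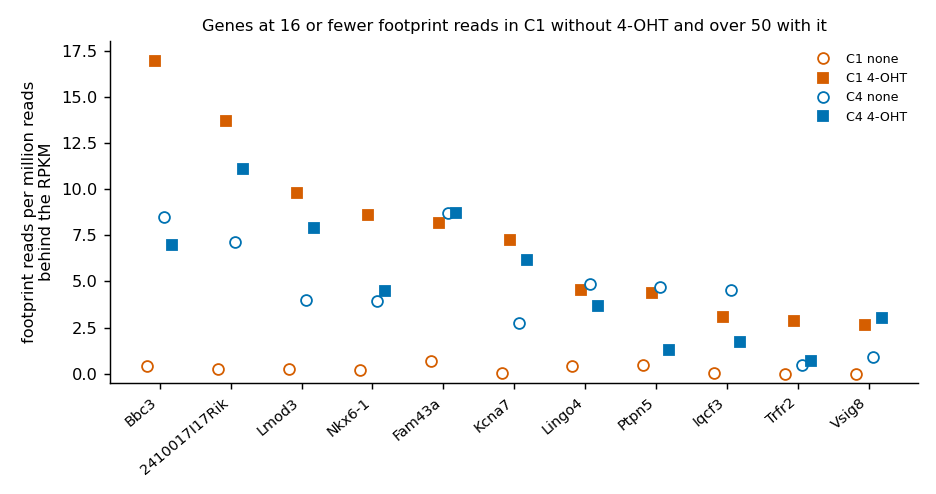
Footprint reads in RPM (y axis) of the 11 genes with 16 or fewer reads in C1 cells without 4-OHT and over 50 with it, in C1 (orange) and C4 cells (blue), without (open circles) and with 4-OHT (filled squares). Untreated C1 cells lie near 0, as the choice of genes requires, at 0.447 for Bbc3, and the C4 libraries are spread above them.

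Among genes with intervals wholly below 0, those furthest below the general fall were Kit, Etohi1, Papolg, Hells, Skp1a, Pggt1b, Odc1, Ric8b, Klhdc10 and Ttc27. None of them is a member of the mitochondrial, histone or ribosomal protein lists. Kit, the receptor of stem cell factor, had 453 footprint reads without 4-OHT and 64 with it in C1 cells, and 96 and 65 in C4 cells. With 1947 and 1758 RNA-Seq reads, its TE went from 1.42 to 0.216, a centred change of -1.24 (interval -1.63 to -0.85). Papolg, a poly(A) polymerase, had 294 and 54 footprint reads in C1 cells and 40 and 44 in C4 cells, at -1.10 (-1.54 to -0.65). Odc1, ornithine decarboxylase, the entry point of polyamine synthesis, had 1145 and 169, and 222 and 101, at -0.99 (-1.23 to -0.75) in C1 cells and -0.43 (-0.77 to -0.09) in C4 cells. In these 3 genes the untreated C1 library was the high one, as it was in nearly all genes. Of 4484 genes counted in both untreated lines, 4475 had a TE no lower in C1 than in C4 cells. Centred on the median gene, that comparison gave 0.92 for Kit and 0.85 for Odc1. For treated C1 against untreated C4 cells Kit was at -0.34 and Odc1 at -0.16, and Papolg could not be counted.

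Skp1a, a subunit of SCF ubiquitin ligases, was counted over the 97-nt exon shown above, with 1062 and 186 footprint reads in C1 cells and 118 and 101 in C4 cells. Its centred change was -1.06 (-1.30 to -0.81) in C1 cells, 0.66 (0.27 to 1.06) in C4 cells and 0.88 for treated C1 against untreated C4 cells. Pggt1b, the β subunit of the type I protein prenyltransferase, was likewise below the median in C1 cells (-1.05) and above it in C4 cells (0.50), and at -0.43 for treated C1 against untreated C4 cells. Hells, a chromatin remodeler of dividing cells, had 257 and 52 footprint reads in C1 cells while its RNA-Seq reads were 8099 and 9295, at -1.07 (-1.50 to -0.64); it stayed 2-fold below, at -1.41 (-1.91 to -0.90), for treated C1 against untreated C4 cells. Of the 6 genes 2-fold below that could be counted in that comparison, it was the only one to do so. Etohi1 rested on 20 and 21 RNA-Seq reads.

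Most other gene lists shared the general fall. Of 41 lists, 28 had 10 or more counted members, and 25 of these had a median within 0.2 of the median gene. The 3 above 0.2 were the histones, the immediate early genes and the p53 targets, and no list lay below -0.2. The immediate early genes, transcription factors and regulators that cells switch on within minutes of a stimulus, had a median of 0.27 over 18 genes, 15 of them above the median gene and Jund (146 and 98 footprint reads) 2-fold above at 1.06. Their coding exons had a median GC content of 61.0%, and centred within 20ths of GC content their median was 0.13. p53 and its targets, the list to which Bbc3 belongs, had a median of 0.21 over 16 of 35 genes, with Zmat3, an RNA-binding p53 target, 2-fold above (212 and 156 reads, 1.10), and 0.07 when centred within GC content. In C4 cells the medians were 0.11 and -0.11, and for treated C1 against untreated C4 cells -0.22 and -0.15. The BCL-2 family, in which Bbc3 acts, had 6 counted members between Bcl2l13 at -0.29 and Bak1 at 0.55, with none 2-fold from the median.

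The translation machinery followed the median gene. Of 83 cytosolic ribosomal protein genes, 81 were over the footprint limit and 45 could be counted, the others having no RNA-Seq row or being listed at 0. Their median was 0.09, with 27 of 45 above the median gene, between Rpl30 at -0.57, which rested on 5 and 6 RNA-Seq reads, and Rpl22 at 1.34. Rpl22, a protein of the large subunit, was the only one 2-fold above, with 3903 and 3141 footprint reads in C1 cells and 1970 and 1737 in C4 cells. The other 5′ TOP mRNAs had a median of -0.07 over 15 genes, translation initiation factors -0.07 over 35, aminoacyl-tRNA synthetases -0.04 over 19 and ribosome biogenesis factors 0.01 over 46, with no member 2-fold from the median. With untreated C4 cells as the control, the medians were 0.08 for ribosomal proteins, 0.19 for the other 5′ TOP mRNAs, 0.17 for initiation factors, 0.07 for tRNA synthetases and 0.12 for ribosome biogenesis. The lowest of the initiation factors was Eif2s3x, a subunit of eIF2, at -0.79, and the highest Eif1a at 0.99.

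Genes of protein folding and trafficking had medians slightly below 0 in the C1 pair. ER chaperones and folding enzymes had the lowest median of the lists with 10 or more members, -0.17, with 5 of 24 above the median gene, between Ero1l at -0.63 and Sec61b at 0.58. Cytosolic chaperones had -0.12 over 23 genes, from Hspa4 at -0.31 to Bag3 at 0.40, and Rab and Arf GTPases, which direct vesicle traffic, -0.13 over 37. Proteasome subunits had -0.07 over 34, with Psmb10, an immunoproteasome subunit, 2-fold above at 1.16 on 94 and 76 footprint reads. mRNAs with regulatory upstream reading frames, which escape repression when eIF2 is phosphorylated, had a median of 0.02 over 7 of 18 genes. That value hung on the read limit. It was 0.53 over 15 genes with over 5 reads, 0.27 over 12 with over 20 and -0.23 over 2 with over 100. The targets of ATF4, the transcription factor of the same stress response, had 0.11 over 13 of 29. Centred within GC content, the medians were -0.00085 for cytosolic chaperones, 0.01 for Rab and Arf GTPases and -0.01 for proteasome subunits, and that of ER chaperones was -0.22. With untreated C4 cells as the control of treated C1 cells, these 4 lists lay at 0.16, 0.17, 0.13 and 0.03, all above 0.

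**Figure D5:**
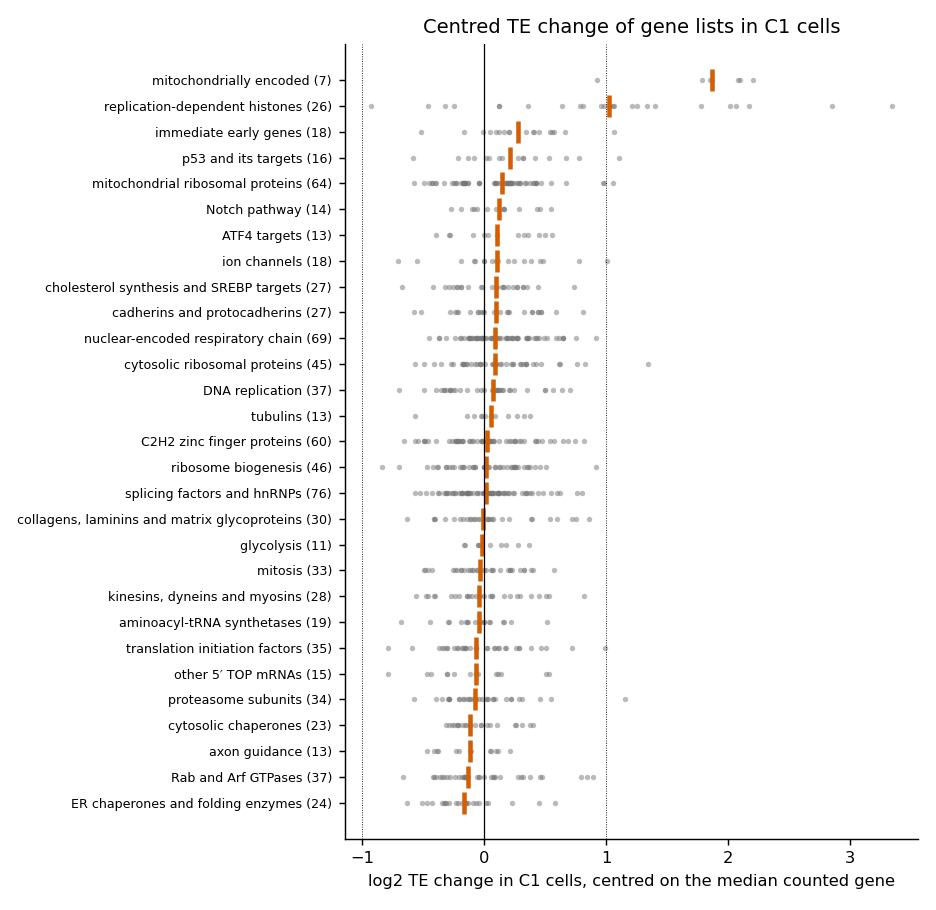
Centred log2 TE change in C1 cells (x axis) for the lists with 10 or more counted members and the mitochondrially encoded genes (y axis, number counted in brackets). Grey points are genes, orange bars list medians, and dotted lines the 2-fold limits; the mitochondrial genes (1.87) and histones (1.03) stand apart and the other medians lie between -0.17 and 0.27.

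Neural and regulatory gene lists spread around the median gene in the same way. Splicing factors and hnRNPs had a median of 0.01 over 76 genes, C2H2 zinc finger proteins 0.02 over 60, matrix proteins -0.01 over 30, axon guidance genes -0.12 over 13 and Notch pathway genes, which keep neural progenitors undifferentiated, 0.12 over 14. Ion channels had 0.10 over 18, with the potassium channel Kcna6 2-fold above at 1.01 (169 and 91 footprint reads), the only one of all these genes to pass that limit. Set against untreated C4 cells, the Notch genes were at -0.17, the matrix proteins at -0.32, axon guidance genes at -0.12, ion channels at 0.08, splicing factors at 0.06 and zinc finger proteins at 0.02.

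In 3 lists of cell division and sterol synthesis, footprints and mRNA changed by like amounts. Relative to the median gene, mitosis genes had a footprint change of 0.56 and an mRNA change of 0.58, so that their TE change was -0.03 over 33 genes. Cholesterol synthesis and SREBP target genes had 0.42 and 0.48 over 27 genes (TE 0.10), and DNA replication genes 0.34 and 0.33 over 37 (TE 0.07). None of these genes lay 2-fold from the median in TE, and for treated C1 against untreated C4 cells the TE medians were 0.03, -0.10 and 0.0025.

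The neural stem cell label was checked against cell type markers. Of the 10 neural stem markers in the table, 8 were counted, among them Hes1, the Notch effector, the highest at 0.43, and their RNA-Seq RPKM summed to 5566 without 4-OHT and 5718 with it. All 8 lay at or above the median gene, with a median of 0.18 and none 2-fold above. The lowest was Msi2, itself a targeted gene, at 0.00. Centred within 20ths of GC content, the median was 0.09. In C4 cells the median was 0.18 over 6 genes, and for treated C1 against untreated C4 cells -0.18. Astrocyte markers summed to 549 and 482 RPKM and oligodendrocyte lineage markers to 852 and 957, and S100b was the only marker 2-fold above the median (190 and 110 footprint reads, 1.13). Neuron markers summed to 12.6 RPKM without 4-OHT, but Tubb3, a neuronal β-tubulin, had 2298 and 471 footprint reads and lay at -0.57. Microglia markers had 0 footprint reads in both libraries, endothelium markers 11 and 9, and fibroblast and meninges markers 103 and 7.

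Among the mRNAs with the most footprints in both libraries were Actg1 and Ckb, and among those of the treated library also mt-Co1 and mt-Cytb, described above. Ckb, brain creatine kinase, had 43313 and 19414 reads and a centred TE change of 0.34, while Actg1, cytoplasmic γ-actin, had 56325 and 16493 reads and 0.08. The top 10 genes took up 5.97% of the untreated and 6.99% of the treated footprints.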

How the data were processed

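RNA-Seq and Ribo-Seq of C1 cells were analysed, with C4 cells beside them. Per the labels, reads were processed with Bowtie and TopHat on mm9. The authors deposited, for each gene, a read count over the listed coding exons (Ribo-Seq) or over the length in the file (RNA-Seq), not normalized, and an RPKM. The reads behind each RPKM, 1 number for all genes of a library, were recovered from count, length and RPKM, and footprint RPM is the count over that number, scaled to 1000000. The genes, lists and classes were chosen with earlier results of these data known.

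TE is Ribo-Seq RPKM over RNA-Seq RPKM, with nothing added. Genes needed over 50 footprint reads in both libraries and over 0 RNA-Seq reads. The log2 TE change was centred on the median gene, and genes at least 2-fold from it were counted. The 95% intervals use the delta method on the 4 read counts. With 1 library per condition nothing was tested. Reads on near-identical genes can be shared.

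Named were the 10 highest and 10 lowest genes whose interval lay wholly above or below 0, Bbc3, Msi1, Msi2, the highest and lowest member and 2-fold members of the lists described, and the 5 genes with the most footprints per library, not all of which are reported here. Other genes, including those shown as examples of the mitochondrial, histone and read-limited classes, were chosen after their values were seen. GC content and exon sequences came from the NCBIM37 genome, and transcription starts from RefSeq (GRCm38.p6). Alternatives were other read and fold limits, footprints alone, another scaling and untreated C4 cells as the control. The steps were tested on simulated data. Python 3.11.15, numpy 2.4.6, pandas 2.3.3 and matplotlib 3.10.9 were used.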

Additional observations from a re-analysis of the deposited data

Results flagged for a closer look

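Of the 20 genes named above as highest or lowest in centred TE change in C1 cells, 5 changed the opposite way in C4 cells with both counting intervals clear of 0. With 1 library per condition the difference between the lines was not tested. Rpia was at 3.09 in C1 cells and -0.42 in C4 cells. Egln1 was at 2.49 and -0.77. mt-Nd1 was at 2.21 and -0.12. Skp1a was at -1.06 and 0.66. Pggt1b was at -1.05 and 0.50.

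Footprints were also found where the RNA-Seq files list 0 reads, outside the TE comparison, at levels above those of untreated C1 cells. In treated C1 cells 2410017I17Rik had 279 footprint reads (6 without 4-OHT), Lmod3 200 (6), Nkx6-1 175 (5) and Iqcf3 63 (1).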

How the results depend on the processing

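Of the genes at least 2-fold above and below the median (98 and 7), read limits of over 5, 20 and 100 gave 630 and 284, 276 and 60, and 52 and 3. Fold limits of 1.5 and 3 gave 390 and 173, and 23 and 0. Scaling to summed counts gave 58 and 23, genes of similar length in both assays (1571) 41 and 4, and untreated C4 cells as the control 25 and 34. An alternative added after seeing the data, over 500 untreated reads, gave 32 and 1. The median TE change was -1.46 with over 5 and over 20 reads and -1.48 with over 100, -0.13 with summed counts, and reversed to 0.51 with untreated C4 cells. The step between the end bins of GC content (0.41) was 0.45 with over 5 reads, 0.39 with over 100, 0.48 with similar lengths and 0.32 with over 500 untreated reads, and reversed to -0.40 with untreated C4 cells. That control also reversed the sign of Egln1 (-0.20), mt-Nd1 (-0.53), Slc25a36 (-0.96) and Skp1a (0.88), moved 11 named genes and kept 3. The Egln1 interval (-0.50 to 0.11) spanned 0. The cause of these shifts was not tested. No paired analysis was possible because each condition had 1 library of each kind, which also allows no replicate to be left out. Depth limits genes with few reads: the typical counting interval reached 0.29 to either side.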
